A study of Homo sapiens with 4 samples.

Results

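The genes described here encode the transforming growth factor beta (TGF-beta) and bone morphogenetic protein (BMP) signalling pathway: its ligands, latent binding proteins, receptors, SMAD proteins, SMURF ubiquitin ligases, SKI and TGIF corepressors and ID targets. They were chosen by symbol (BMP, SMAD, TGFB, ACVR, SMURF, GDF, LTBP and ID names, with SKI, SKIL, TGIF1, TGIF2 and BAMBI). The measured sites were single adenosines of these transcripts, kept where every one of the 4 libraries listed the site from 20 or more reads carrying A or G. This left 380 sites in 44 genes, of 78509 sites in 10782 named genes that met the same requirement.

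The samples were HEK293T cells, a human embryonic kidney line that carries the SV40 large T antigen. In 2 libraries the cells had been seeded for 24 h and then given ascorbic acid for 36 h, with the medium renewed every 6 h. The other 2 libraries came from control cells, labelled WT, for which the same times of 24 h, 36 h and 6 h are recorded. The sources used here do not give the dose of ascorbic acid. The libraries were made by GLORI, in which glyoxal and nitrite turn unmethylated A into a base read as G, while m6A (N6-methyladenosine) keeps its identity as A. Levels are given per site as the percentage of A among the A and G reads.

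TGF-beta and activin ligands bind a type II receptor, which phosphorylates a type I receptor, which in turn phosphorylates SMAD2 and SMAD3. BMP ligands act in the same way through SMAD1, SMAD5 and SMAD9, and both branches use SMAD4 as the shared partner that carries the signal into the nucleus. m6A is written on messenger RNA mainly by the METTL3 complex and can be removed by FTO and ALKBH5, iron-dependent dioxygenases of a class for which ascorbic acid serves as a reducing cofactor. The libraries measured the transcripts and not the activity of the pathway.

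Sequence was at hand for 3 of the tested sites, those inside the RefSeq promoter windows (GRCh38.p14, plus strand in all 3). They are shown because they lie at the 5′ ends of ID1, ID2 and ACVR2B, and because in both ID genes the site is the annotated first base of the transcript. The capitals mark the measured A with the pair of bases on either side of it, 5′ to 3′.
ID1 chr20:31605279-31605299: ccgcactcTCATTccacgttc
ID2 chr2:8682046-8682066: ctcgggctTCATTctgagccg
ACVR2B chr3:38453918-38453938: gccattttGGACTcggttcag
The ACVR2B site, 38 nt after the annotated start, is in the DRACH motif, the usual context of m6A, and the sites in ID1 and ID2 are not. Of 2453 tested sites of all genes that fell in such windows, 718 (29.3%) had this motif. A first base that is an A often carries m6Am, which is made by another enzyme, PCIF1, and is also read as A. Whether the ID1 and ID2 sites are m6Am was not tested.

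The libraries listed between 132989 and 144171 sites with 22592887 to 28562744 A plus G reads in all. At the 380 sites the median number of reads was 104 and 119 with ascorbic acid, against 101.5 and 99.5 in control, so that the 95% Wilson interval of a single level was typically 14.8 to 15.6 percentage points wide. Such intervals cover counting error only. The unconverted share of A in these genes, from the deposited conversion rate, had a median of 3.22% and 3.34% with ascorbic acid, against 3.07% and 4.52% in control, so control library 2 was the least converted. Of 5 genes typical of HEK293T cells, 4 had a listed site, and of 11 markers of other cell types COL1A1 was listed in 3 libraries and CD79A in 1. The labels do not say whether the libraries of a group came from separate cultures, so p-values measure only the spread between these libraries.

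Methylation was lower in ascorbic acid at most sites of the pathway. The median level over the 380 sites was 38.0% ± 0.00945 with ascorbic acid and 44.7% ± 0.00362 in control (SD of the library medians, n = 2 each). In the site test (quasi-likelihood in edgeR on the reads with A and with G, Benjamini-Hochberg adjustment over the whole table, threshold 0.05), 88 sites fell, none rose and 292 did not pass. The share that fell was 23.2%, beside 25.7% of all tested sites. Before any split by control level the pathway's sites thus fell about as often as tested sites in general. The share of all sites that rose was 0.22%, and 1 site of the pathway was higher at an unadjusted p under 0.05, as were 0.574% of all sites. The mean level was lower in 309 of the 380 sites, beside 82.9% of all tested sites. Both ascorbic acid values were under both control values at 200 sites and over them at 16, beside 55.4% and 4.22% of all tested sites. The median change per site was -4.54 percentage points, beside -4.89 over all tested sites, and with levels corrected for the unconverted share it was -4.52. The count of fallen sites depended on the libraries: it was 53 without ascorbic acid library 1, 47 without ascorbic acid library 2, 79 without control library 1 and 49 without control library 2. DESeq2 called 39 sites fallen.

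**Figure D1:**
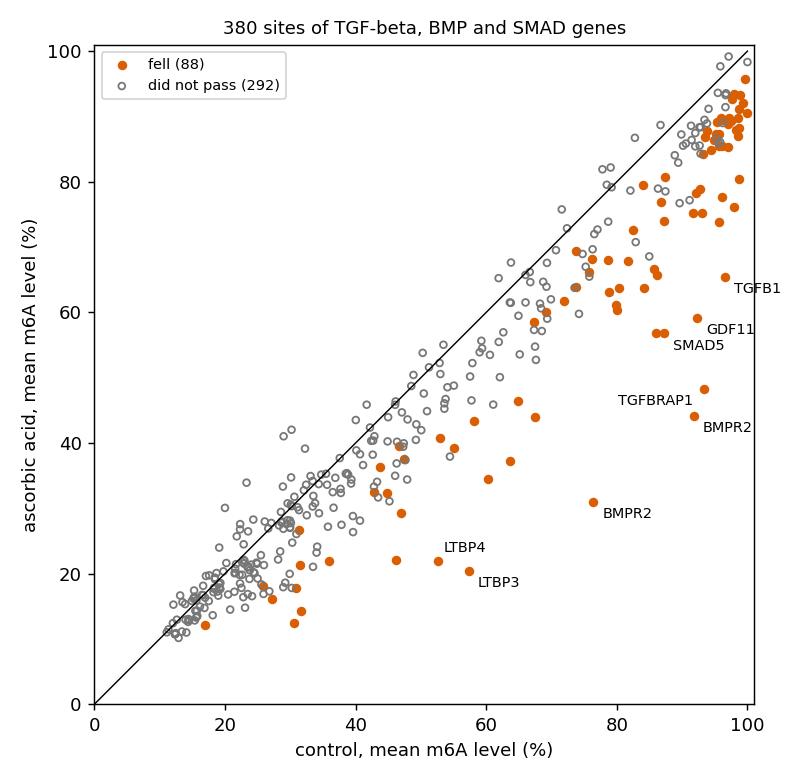
Each point is 1 of the 380 sites, with its mean m6A level in ascorbic acid (vertical axis, %) against that in control (horizontal axis, %); filled points are the 88 that fell and open points the 292 that did not pass. Most points lie under the line of equal levels, and the labelled sites, which fell by over 30 points, lie far below it, led by both sites of BMPR2.

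Sites that were highly methylated in control made up most of the falls. Of the 88 sites at 80% or more in control, 52 fell (59.1%), while 1 of 55 sites under 20% did (1.82%). Between these ends, 8 of 116 fell at 20% to 40% (6.90%), 12 of 64 at 40% to 60% (18.8%) and 15 of 57 at 60% to 80% (26.3%). Over all tested sites the shares in the same 5 classes, from the lowest level to the highest, were 4.65%, 13.9%, 24.8%, 38.8% and 57.3%. In every class but the highest the pathway's share was the lower, a difference that was not tested. The classes were set by the same control values that entered the test, which favours falls in the high classes. Listed sites had a level of at least 10% in every library, so sites under 20% had little room to fall. The fallen sites of the pathway had a median level of 67.3% with ascorbic acid, against 86.1% in control, and their median change was -10.7 points, beside -14.8 over all fallen sites. The sites that did not pass had a median of 33.3% with ascorbic acid and 35.6% in control. A fall of more than 20 points was seen at 17 sites in 13 genes, beside 8.08% of all tested sites, and a fall of more than 40 points at 3 sites, in BMPR2 and TGFBRAP1.

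Summing the A and G reads over the tested sites of each gene gave 1 level per gene, and the same test found that 22 of the 44 genes fell and none rose. That share, 50%, stands beside 56.8% of all genes for falls and 0.297% for rises. Leaving out each library in turn gave 16 to 23 fallen genes. None was higher at an unadjusted p under 0.05, as were 0.454% of all genes. ACVR1B, BMP6 and BMP8B did not pass in limma, and these 3 with ACVR2B, TGFB1 and TGIF2 did not pass in DESeq2. The mean level was lower with ascorbic acid in 42 genes (92.2% of all genes), both values with ascorbic acid were under both control values in 35 (76.7% of all genes) and over them in none (1.75% of all genes), and in 9 the groups overlapped. Among genes with at least 3 tested sites, 19 of 33 fell, beside 68.3% of all such genes. Gene levels ran from 14.9% to 69.0% with ascorbic acid and from 25.6% to 70.9% in control. Deep sites weigh more in this sum, and reads spanning neighbouring sites enter it more than once, so the gene level is not the mean of the site levels.

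**Figure D2:**
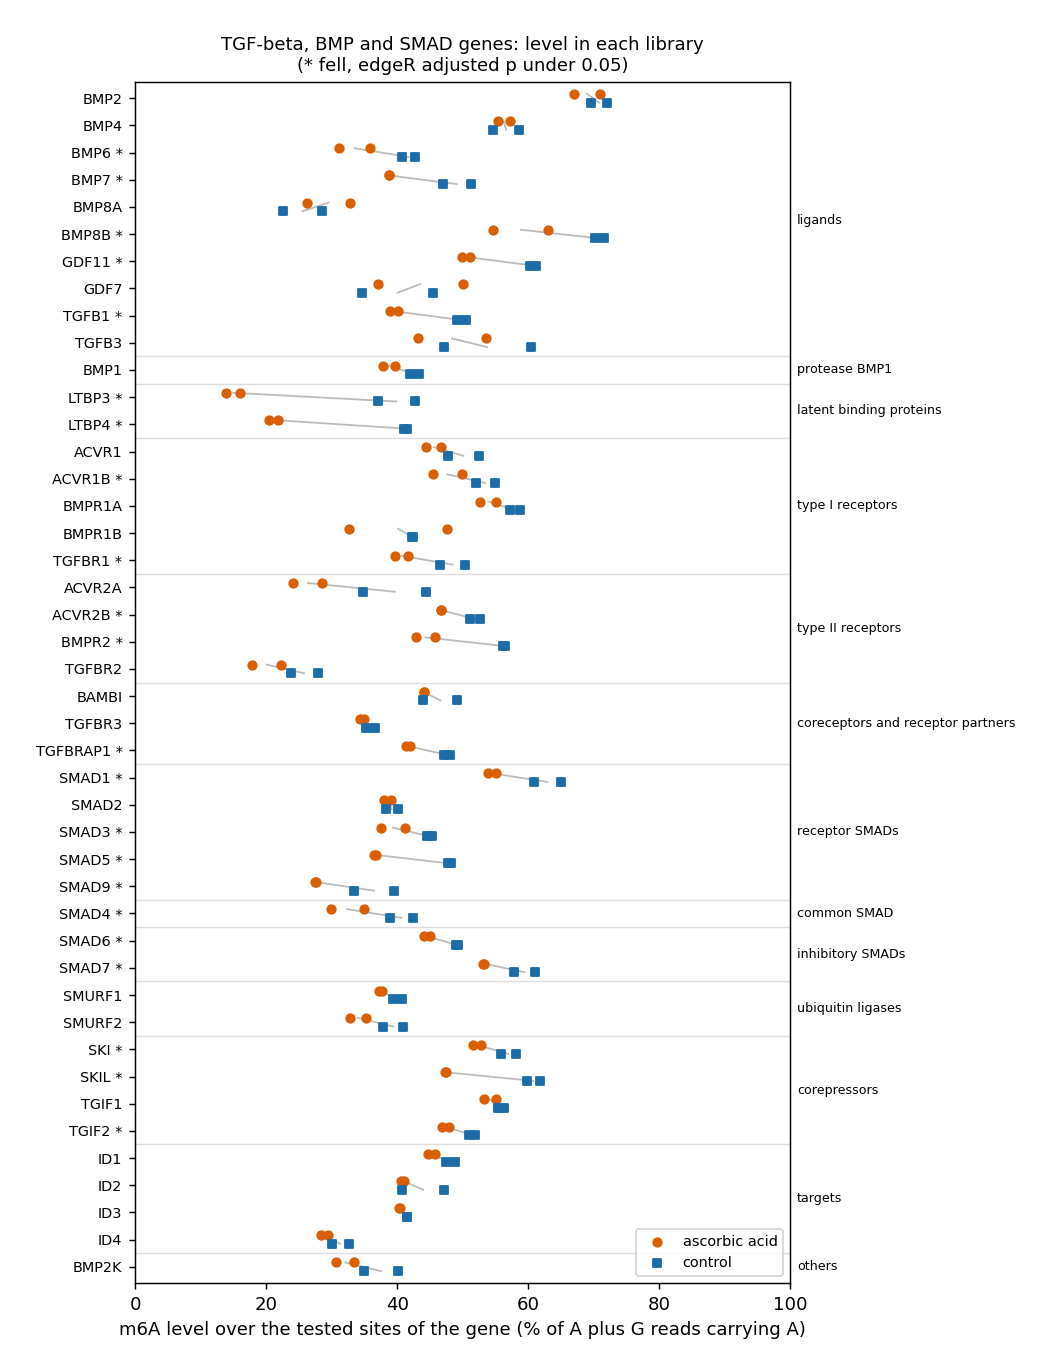
The m6A level of each of the 44 genes (horizontal axis, %) in each of the 2 ascorbic acid libraries (circles) and the 2 control libraries (squares), ordered by role, with a line joining the group means and a star for the 22 genes that fell. LTBP3 and LTBP4 show the widest gaps, and the ID genes sit close to equality.

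Among the ligands, 5 of 10 genes fell (GDF11, BMP7, TGFB1, BMP6 and BMP8B), beside 56.8% of all genes. Of their 51 sites 11 fell (21.6%, beside 25.7% of all tested sites). GDF11, a ligand of the activin receptors, had a level of 50.5% ± 0.892 with ascorbic acid and 60.8% ± 0.645 in control (SD, n = 2 each, adjusted p = 1.44e-05). TGFB1, the ligand that names the family, averaged 39.4% ± 0.868 with ascorbic acid and 49.8% ± 0.921 in control (adjusted p = 0.0037, and 0.0547 in DESeq2). BMP7, which acts in kidney development, averaged 38.7% ± 0.00532 with ascorbic acid and 49.1% ± 2.99 in control (adjusted p = 1.64e-05). In each of these 3 genes the groups did not overlap.

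In GDF11, TGFB1 and BMP7 the site of smallest p fell further than the gene, which choosing a site by its p favours. The GDF11 site at chr12:55749620 was at 60.5% and 57.9% with ascorbic acid, against 93.6% and 90.9% in control, from 250 to 299 reads a library (adjusted p = 6.43e-14). The TGFB1 site at chr19:41353420 was at 65.5% and 65.4% with ascorbic acid, against 96.6% in both control libraries, from 52 to 59 reads (adjusted p = 7.52e-07). It lies 502 nt from the annotated gene start. The BMP7 site at chr20:57266437, 204 nt from the start, was at 60.5% and 61.7% with ascorbic acid, against 80.05% and 79.8% in control, from 410 to 605 reads (adjusted p = 4.54e-09).

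The calls for BMP6 and BMP8B rested on single libraries. BMP6, a ligand best known for its control of hepcidin, averaged 33.5% ± 3.40 with ascorbic acid and 41.7% ± 1.40 in control (SD, n = 2 each, adjusted p = 0.0321), and did not pass without ascorbic acid library 1 (adjusted p = 0.298) or control library 1 (0.0875). Its site at chr6:7726693 was at 27.5% and 41.4% with ascorbic acid, against 56.0% and 64.6% in control, and did not pass without ascorbic acid library 1 (adjusted p = 0.108). BMP8B averaged 58.9% ± 5.95 with ascorbic acid and 70.9% ± 0.999 in control from 2 sites (adjusted p = 0.0486). It did not pass without ascorbic acid library 2, control library 1 or control library 2, where the adjusted p was 0.371, 0.0930 and 0.0911. Its site at chr1:39760227 was at 87.5% and 83.3% with ascorbic acid, against 95.6% and 96.6% in control, and did not pass when any 1 of the 4 libraries was left out (adjusted p from 0.0913 to 0.275). BMP8A and BMP8B are near-identical copies, so reads may have been assigned to either. BMP8A averaged 29.5% ± 4.74 with ascorbic acid and 25.6% ± 4.27 in control, and was 1 of the 2 genes with a higher mean (adjusted p = 0.531).

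The other ligands did not pass the test. BMP2 had the highest level of the 44 genes in ascorbic acid, at 69.0% ± 2.76 with ascorbic acid and 70.8% ± 1.65 in control (adjusted p = 0.637). BMP4, its close relative, averaged 56.2% ± 1.30 with ascorbic acid and 56.6% ± 2.87 in control, and its groups overlapped (adjusted p = 0.873). TGFB3 averaged 48.4% ± 7.38 with ascorbic acid and 53.7% ± 9.45 in control (adjusted p = 0.346), and passed as fallen when no read minimum was set (0.0331). GDF7 rested on 1 site of 22 to 27 reads, with 43.5% ± 9.17 with ascorbic acid and 40.0% ± 7.66 in control. BMP1, which despite its name is a metalloprotease that cuts procollagen and the BMP antagonist chordin, averaged 38.8% ± 1.32 with ascorbic acid and 42.6% ± 0.976 in control from 2 sites (adjusted p = 0.346).

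The latent TGF-beta binding proteins, which tether the inactive ligand to the extracellular matrix, had the widest falls. Both genes with tested sites fell, beside 56.8% of all genes, as did 3 of their 4 sites, beside 25.7% of all tested sites. LTBP3 averaged 14.9% ± 1.55 with ascorbic acid and 39.9% ± 4.04 in control (SD, n = 2 each, adjusted p = 1.73e-05), and LTBP4 averaged 21.1% ± 1.03 with ascorbic acid and 41.3% ± 0.253 in control (adjusted p = 6.50e-07). Each value rests on 2 sites and on 96 to 466 summed reads a library. The LTBP4 site at chr19:40627045 was at 23.1% and 20.6% with ascorbic acid, against 52.9% and 52.3% in control (adjusted p = 2.42e-10). The second LTBP4 site, at 20.1% with ascorbic acid and 21.5% in control, did not pass. The LTBP3 site at chr11:65538844 was at 14.6% and 26.3% with ascorbic acid, against 52.9% and 61.8% in control (adjusted p = 0.000119), and lies 285 nt from the annotated 3′ end. LTBP1 had 21 listed sites but only 2 in all libraries, both under 20 reads, so it had no tested site.

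Of the type I receptors, the kinases that phosphorylate SMADs, TGFBR1 and ACVR1B fell and ACVR1, BMPR1A and BMPR1B did not pass. At the site level 4 of 27 sites fell (14.8%, beside 25.7% of all tested sites). TGFBR1, the type I receptor for TGF-beta, averaged 40.7% ± 1.40 with ascorbic acid and 48.4% ± 2.67 in control (SD, n = 2 each, adjusted p = 0.00183). Its site at chr9:99149324 was at 85.7% and 85.1% with ascorbic acid, against 96.2% and 95.1% in control (adjusted p = 0.00161). ACVR1B, an activin receptor, averaged 47.6% ± 3.10 with ascorbic acid and 53.4% ± 2.01 in control (adjusted p = 0.0468). None of its 4 sites passed on its own; the one of smallest p, chr12:51994982, was at 67.3% and 66.7% with ascorbic acid, against 73.7% and 76.8% in control (adjusted p = 0.0703). The call for ACVR1B was lost without ascorbic acid library 1 (adjusted p = 0.363) or control library 2 (0.206). BMPR1A, a BMP receptor, had 2 fallen sites of 7 but as a gene averaged 53.9% ± 1.73 with ascorbic acid and 58.0% ± 1.06 in control (adjusted p = 0.0989).

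Of the type II receptors, which bind ligand first, BMPR2 and ACVR2B fell, 2 of 4 genes, beside 56.8% of all genes. At the site level 5 of 29 sites fell (17.2%, beside 25.7% of all tested sites). BMPR2 averaged 44.3% ± 1.97 with ascorbic acid and 56.3% ± 0.219 in control over 17 sites (SD, n = 2 each, adjusted p = 4.52e-06). It held the deepest site losses of the pathway, at a pair of sites near the 5′ end of the gene. The site at chr2:202377208 was at 29.6% and 32.3% with ascorbic acid, against 77.6% and 75.1% in control (125 to 177 reads, adjusted p = 9.59e-13). The site at chr2:202377352, named after its values were seen, was at 40.7% and 47.5% with ascorbic acid, against 91.0% and 92.5% in control. They lie 881 and 1025 nt from the annotated start. In contrast, the BMPR2 site at chr2:202559936 was at 96.7% and 100% with ascorbic acid and at 100% in both control libraries, from 20 to 30 reads, and did not pass.

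ACVR2B, an activin receptor, averaged 46.7% ± 0.0246 with ascorbic acid and 51.9% ± 1.16 in control (SD, n = 2 each, adjusted p = 0.0321). This call was lost without either ascorbic acid library (adjusted p = 0.138 without library 1 and 0.153 without library 2) or without control library 2 (0.126). Among its 8 sites 1 fell: chr3:38483265 was at 73.7% and 76.8% with ascorbic acid, against 87.4% and 95.9% in control (adjusted p = 1.42e-05), and its log2 odds ratio of -1.92 became -2.91 without control library 1 and -1.19 without control library 2. The ACVR2B site of the printed sequence was at 30.3% and 17.9% with ascorbic acid, against 31.6% and 36.7% in control, and did not pass (adjusted p = 0.26). TGFBR2 had the lowest control level but for BMP8A, at 20.0% ± 3.15 with ascorbic acid and 25.8% ± 2.90 in control (adjusted p = 0.0909), and passed without control library 2 (adjusted p = 0.0483). ACVR2A rested on 1 site of 21 to 29 reads, at 26.4% ± 3.13 with ascorbic acid and 39.6% ± 6.83 in control (adjusted p = 0.189).

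Among the coreceptors and receptor partners, TGFBRAP1 fell, and BAMBI and TGFBR3 did not pass (1 of 3 genes, beside 56.8% of all genes). At the site level 8 of 47 sites fell (17.0%, beside 25.7% of all tested sites). TGFBRAP1, which binds TGF-beta receptors and SMAD4, carried the most tested sites of the pathway, 35. It averaged 41.6% ± 0.443 with ascorbic acid and 47.6% ± 0.646 in control (SD, n = 2 each, adjusted p = 0.000342). Its site at chr2:105308089 was at 50.0% and 46.7% with ascorbic acid, against 92.1% and 94.7% in control, from 38 to 75 reads (adjusted p = 1.39e-08). BAMBI, a pseudoreceptor without a kinase domain, averaged 44.0% ± 0.00114 with ascorbic acid and 46.6% ± 3.64 in control (adjusted p = 0.226), with overlapping groups. Its result rested on the control libraries, since it passed without control library 2 (adjusted p = 0.0127) and its log2 odds ratio was 0.00 without control library 1. TGFBR3, the coreceptor betaglycan, averaged 34.6% ± 0.434 with ascorbic acid and 36.0% ± 1.00 in control from 2 sites (adjusted p = 0.795). The gene value moved less than either site, because the reads were spread differently over them. The site near the 3′ end averaged 54.8% ± 4.87 with ascorbic acid and 67.5% ± 6.39 in control. The other averaged 10.7% ± 1.01 with ascorbic acid and 12.3% ± 1.28 in control, and neither site passed.

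**Figure D3:**
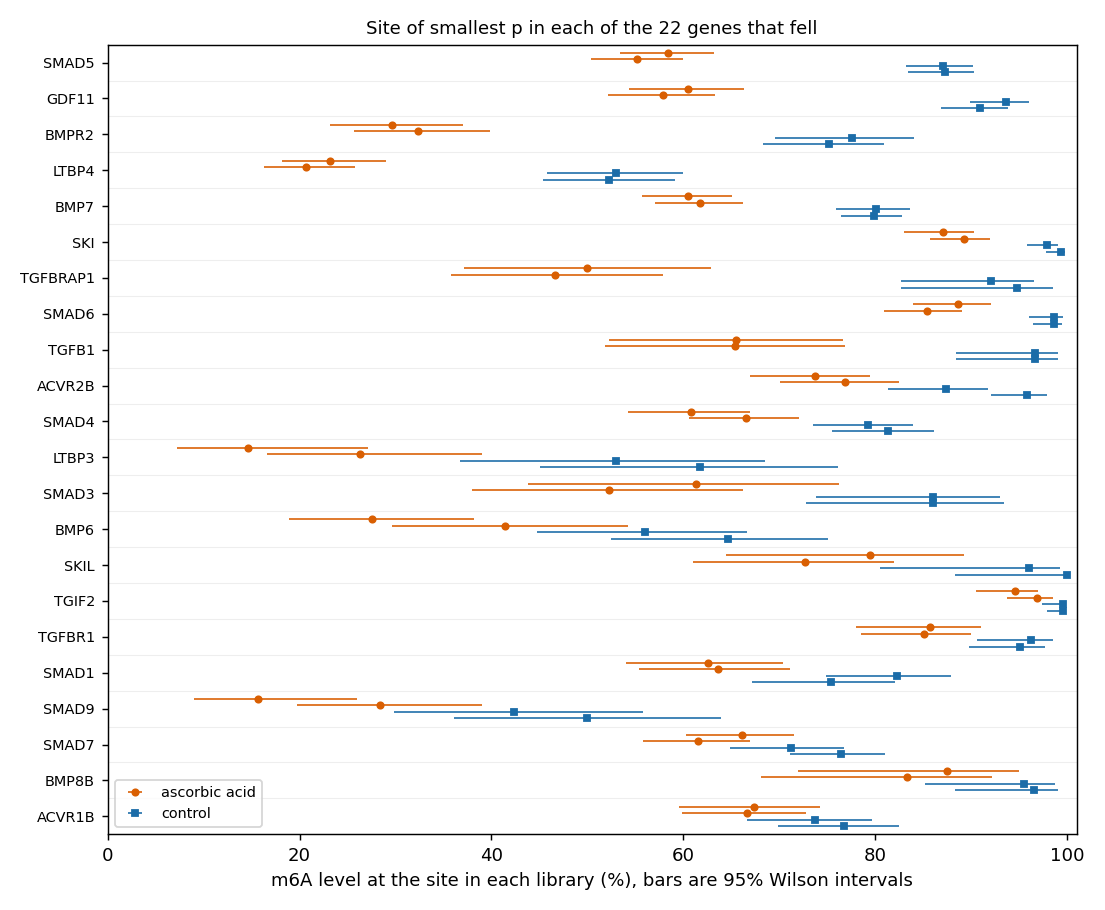
The m6A level (horizontal axis, %) in each ascorbic acid library (circles) and each control library (squares) at the site of smallest p in each of the 22 genes that fell, in order of p, with 95% Wilson intervals as bars. The intervals of the groups lie apart for SMAD5, GDF11, BMPR2 and LTBP4. They overlap for others, among them BMP6, BMP8B and SMAD7, and for ACVR1B, whose site did not pass.

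Of the receptor-activated SMADs, which carry the signal, SMAD1, SMAD3, SMAD5 and SMAD9 fell and SMAD2 did not pass. At the site level 15 of 63 fell (23.8%, beside 25.7% of all tested sites). SMAD5 had the smallest p of the 44 genes, with 36.6% ± 0.271 with ascorbic acid and 48.0% ± 0.369 in control (SD, n = 2 each, adjusted p = 3.63e-07). Its site at chr5:136153722 was at 58.4% and 55.2% with ascorbic acid, against 87.1% and 87.2% in control, from 349 to 413 reads (adjusted p = 4.48e-14). SMAD1 averaged 54.4% ± 0.919 with ascorbic acid and 62.9% ± 2.94 in control (adjusted p = 0.00114). Both belong to the BMP branch, as does SMAD9, which averaged 27.5% ± 0.120 with ascorbic acid and 36.4% ± 4.40 in control (adjusted p = 0.00205) and did not pass without control library 2 (0.0546). The SMAD1 site at chr4:145514919 was at 62.6% and 63.6% with ascorbic acid, against 82.3% and 75.4% in control, and did not pass without control library 1 (adjusted p = 0.0684). The SMAD9 site at chr13:36865700 was at 15.7% and 28.4% with ascorbic acid, against 42.3% and 50.0% in control, and did not pass without ascorbic acid library 1 (0.0965) or control library 2 (0.0773).

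In the TGF-beta branch, SMAD3 averaged 39.3% ± 2.65 with ascorbic acid and 44.9% ± 0.520 in control over 22 sites (SD, n = 2 each, adjusted p = 0.00507). The call was lost without ascorbic acid library 2 (adjusted p = 0.199) and when sites needed 50 reads (0.0633). The SMAD3 site at chr15:67065781, 179 nt from the annotated start, was at 61.3% and 52.3% with ascorbic acid, against 86.0% in both control libraries (adjusted p = 0.00038). SMAD2 averaged 38.5% ± 0.706 with ascorbic acid and 39.2% ± 1.29 in control (adjusted p = 0.771). Even so, 2 of its 6 sites fell: chr18:47841749, at 89.8% and 89.7% with ascorbic acid against 97.2% and 100% in control, and chr18:47841798, at 77.3% and 76.4% with ascorbic acid against 87.2% and 86.4% in control. Both were named after their values were seen. The other 4 SMAD2 sites were at no more than 24.1% in any library.

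SMAD4, the common partner, averaged 32.4% ± 3.56 with ascorbic acid and 40.6% ± 2.52 in control (SD, n = 2 each, adjusted p = 0.00479), and did not pass without ascorbic acid library 1 (0.110). Its site at chr18:51078463 was at 60.8% and 66.5% with ascorbic acid, against 79.2% and 81.4% in control (adjusted p = 3.58e-05). Both inhibitory SMADs, which the pathway induces and which block its receptors, fell. Of their 39 sites 14 fell (35.9%, beside 25.7% of all tested sites). SMAD6 averaged 44.5% ± 0.700 with ascorbic acid and 49.1% ± 0.314 in control over 29 sites (adjusted p = 0.0028), and did not pass without ascorbic acid library 1 (0.115). SMAD7 averaged 53.1% ± 0.0661 with ascorbic acid and 59.4% ± 2.19 in control (adjusted p = 0.00398). The SMAD6 site at chr15:66703617 was at 88.6% and 85.4% with ascorbic acid, against 98.6% in both control libraries (adjusted p = 2.54e-08). Another SMAD6 site, chr15:66703477, was at 91.3% and 89.7% with ascorbic acid and at 100% in both control libraries (adjusted p = 0.019), and did not pass when any 1 library was left out (adjusted p from 0.0535 to 0.116). The SMAD7 site at chr18:48950451 was at 66.2% and 61.5% with ascorbic acid, against 71.2% and 76.4% in control (adjusted p = 0.0074), and did not pass without ascorbic acid library 2 (0.179) or control library 2 (0.199).

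Neither SMURF ubiquitin ligase, enzymes that mark SMADs and receptors for degradation, passed as a gene. Of their 21 sites 2 fell (9.52%, beside 25.7% of all tested sites). SMURF2 averaged 34.0% ± 1.79 with ascorbic acid and 39.4% ± 2.19 in control (SD, n = 2 each, adjusted p = 0.054). It lay close to the threshold and passed without control library 2 (0.0301), when sites needed 50 reads (0.0357) and without sites 6 nt from another listed site (0.0496). SMURF1 averaged 37.4% ± 0.251 with ascorbic acid and 40.0% ± 0.939 in control over 16 sites (adjusted p = 0.154).

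Among the corepressors, which bind SMADs and recruit histone deacetylases, SKIL, SKI and TGIF2 fell and TGIF1 did not pass. Of their 61 sites 20 fell (32.8%, beside 25.7% of all tested sites). SKIL, also known as SnoN, averaged 47.3% ± 0.106 with ascorbic acid and 60.8% ± 1.40 in control (SD, n = 2 each, adjusted p = 0.000699). None of its sites had 50 reads in every library, so it could not be tested at that minimum. Its site at chr3:170361043 was at 79.5% and 72.7% with ascorbic acid, against 96.0% and 100% in control, from 25 to 66 reads (adjusted p = 0.000856), and did not pass without control library 2 (0.0572). Its log2 odds ratio of -3.82 was -6.27 without control library 1. SKI averaged 52.1% ± 0.855 with ascorbic acid and 56.9% ± 1.59 in control over 30 sites (adjusted p = 0.00212), and did not pass without ascorbic acid library 2 (0.109). The SKI site at chr1:2229512 was at 87.1% and 89.2% with ascorbic acid, against 97.9% and 99.4% in control (adjusted p = 1.06e-08). TGIF2, a homeodomain corepressor, averaged 47.3% ± 0.765 with ascorbic acid and 51.5% ± 0.652 in control (adjusted p = 0.00865), but did not pass without ascorbic acid library 1 (0.171) or library 2 (0.0738). TGIF1 averaged 54.1% ± 1.34 with ascorbic acid and 55.8% ± 0.664 in control (adjusted p = 0.445).

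Of the 5 sites of highest control level, 4 fell, each by under 10 points, beside 57.3% of all tested sites at 80% or more in control. The 5 were picked by control values that also entered the test and could hardly rise, so a fall was favoured in advance. The TGIF2 site at chr20:36591831 was at 94.5% and 96.9% with ascorbic acid, against 99.5% and 99.6% in control, from 201 to 265 reads (adjusted p = 0.00105). Another TGIF2 site, chr20:36591251, was at 93.8% and 92.8% with ascorbic acid, against 99.0% and 98.6% in control (adjusted p = 0.0017). The BMP7 site at chr20:57170654 was at 88.7% and 95.3% with ascorbic acid, against 99.2% and 99.3% in control (adjusted p = 0.00091), and did not pass without ascorbic acid library 1 (0.0972). The other sites of the 5 are the SMAD6 and BMPR2 sites at 100% in control given above, of which the BMPR2 site did not pass.

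The 4 ID genes, which encode helix-loop-helix proteins that block DNA binding by their partners and are direct BMP targets, did not pass as genes. Of their 23 sites 4 fell (17.4%, beside 25.7% of all tested sites). ID1 averaged 45.3% ± 0.735 with ascorbic acid and 48.1% ± 1.00 in control (SD, n = 2 each, adjusted p = 0.179), and ID3 averaged 40.3% ± 0.132 with ascorbic acid and 41.5% ± 0.0172 in control (adjusted p = 0.412). ID3 had 6406 to 8390 summed reads a library from 4 sites. Without sites 6 nt from another listed site, ID1 came closer to the threshold (log2 odds ratio -0.311, beside -0.168, adjusted p = 0.0549 in edgeR). All 8 tested ID2 sites had a lower mean with ascorbic acid, with changes from -6.48 to -1.59 points. ID2 averaged 40.8% ± 0.330 with ascorbic acid and 43.9% ± 4.45 in control (adjusted p = 0.0913), and ID4 28.8% ± 0.762 with ascorbic acid and 31.3% ± 1.84 in control (adjusted p = 0.0891). Control library 1 decided both: without it ID2 passed with an adjusted p of 1.73e-08 and ID4 with 0.0036, and without control library 2 the log2 odds ratio of ID2 was 0.00. BMP2K, a kinase induced by BMP2, did not pass either, at 32.1% ± 1.97 with ascorbic acid and 37.5% ± 3.74 in control (adjusted p = 0.074, and 0.0128 without control library 1).

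The sites at the annotated first base of ID1 and ID2 are those whose sequences are given above. The ID1 site was at 47.4% and 50.0% with ascorbic acid, against 49.3% and 47.8% in control (adjusted p = 0.94). The ID2 site was at 41.0% and 48.7% with ascorbic acid, against 44.6% and 57.3% in control, with overlapping groups (adjusted p = 0.64). Over all genes 738 tested sites lay on an annotated first base; 3 of them fell (0.407%), 5 rose, and their median change was 0.0214 percentage points. Whether these sites differ from others of the same level was not tested. Within ID2, by contrast, the neighbouring sites at chr2:8683872 and chr2:8683900, chosen after their values were seen, fell: the first was at 89.4% and 90.2% with ascorbic acid against 94.8% and 97.0% in control, and the second at 90.0% and 88.4% with ascorbic acid against 95.0% and 95.8% in control.

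The change was uneven along several genes. Sites were grouped into blocks wherever more than 1000 nt separated neighbours, introns included, and the differences between blocks were not tested. In SMAD5, the block of 5 sites from 20816 to 21137 nt after the annotated start stood at 48.2% ± 0.449 with ascorbic acid and 66.6% ± 1.48 in control (SD, n = 2 each), and 4 of its sites fell. The block of 11 sites from 44671 to 47271 nt stood at 30.3% ± 1.11 with ascorbic acid and 33.2% ± 0.734 in control, with no fallen site. In SMAD1, 4 of the 7 sites of the first block fell, from levels of 64.8% ± 0.367 with ascorbic acid and 80.2% ± 1.93 in control. The last SMAD1 block, of 4 sites, stood at 47.7% ± 5.15 with ascorbic acid and 42.2% ± 1.97 in control, with none that passed.

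**Figure D4:**
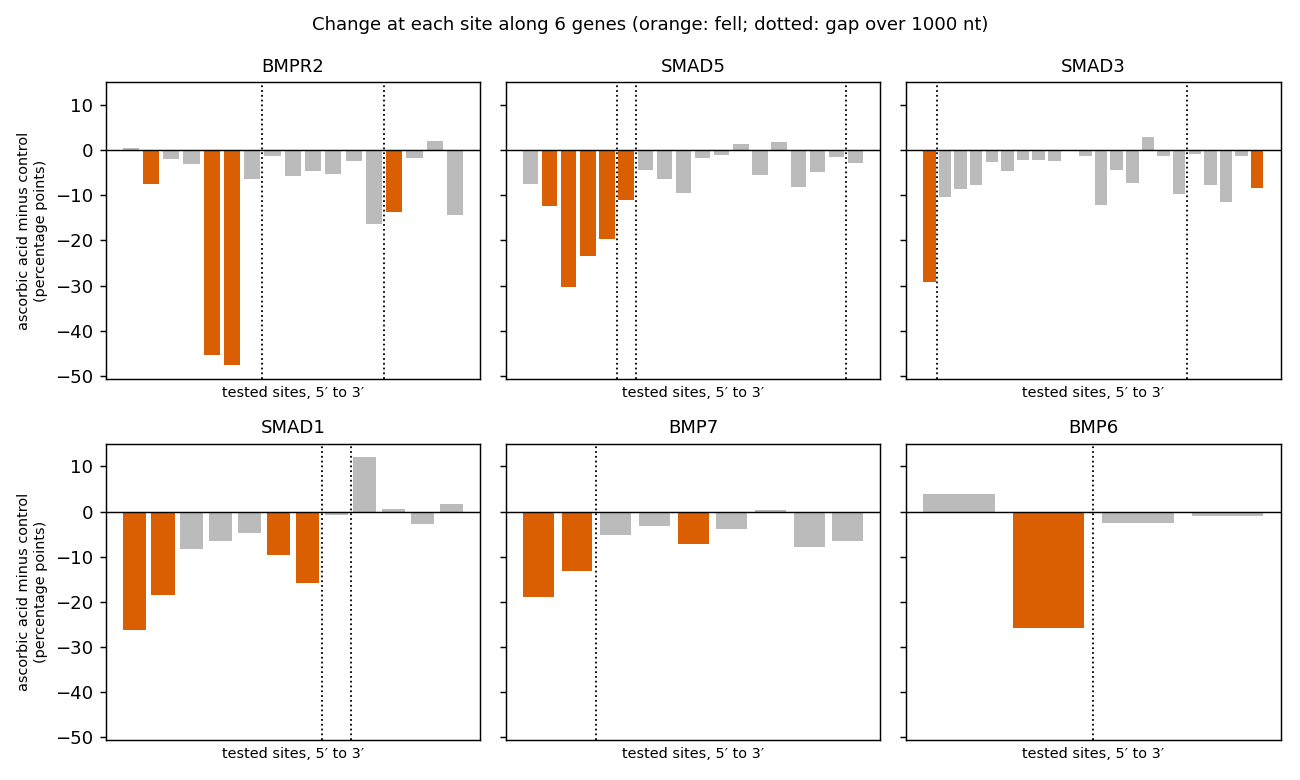
Change in m6A level at each tested site (vertical axis, ascorbic acid minus control, percentage points) in order from 5′ to 3′ along BMPR2, SMAD5, SMAD3, SMAD1, BMP7 and BMP6, with fallen sites in orange and dotted lines at gaps over 1000 nt. In all 6 genes, which were picked after their values were seen, the deepest bar is in the first block.

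BMPR2, SMAD3, BMP7 and BMP6, picked after their values were seen, had the same arrangement, with the deepest change in the first block. Genes outside these 6 went both ways. In LTBP4, SMAD9, SMAD4, ACVR2B and TGFBR3, among others, the deepest change was in a later block, and in GDF11 and SMAD7, among others, in the first. The first BMPR2 block, of 7 sites within 1196 nt of the start, stood at 36.5% ± 3.68 with ascorbic acid and 52.3% ± 1.27 in control, the middle block of 6 at 45.0% ± 0.417 with ascorbic acid and 50.1% ± 6.04 in control, and the last block of 4 at 78.0% ± 0.234 with ascorbic acid and 87.7% ± 2.92 in control. In SMAD3 the lone first site fell by 29.2 points, while none of the 16 sites of the middle block passed and that block stood at 38.9% ± 3.15 with ascorbic acid and 43.1% ± 0.478 in control. The first BMP7 block, of 2 sites, stood at 48.8% ± 0.961 with ascorbic acid and 69.0% ± 5.36 in control, wider than the change at either site because the reads were spread differently over them. Its second block, of 7 sites near the 3′ end, stood at 33.8% ± 0.553 with ascorbic acid and 39.5% ± 0.877 in control. BMP6 had 1 fallen site in its first block and none in its second, which stood at 35.2% ± 0.534 with ascorbic acid and 36.8% ± 4.95 in control. In SMAD6 the last block, of 3 sites of which none passed, stood at 41.2% ± 0.205 with ascorbic acid and 56.2% ± 0.866 in control. This block change of -14.95 points was also wider than at any of its sites, which changed by -14.89 to -5.56 points. The sites had 21 to 104 reads a library. In SKI 9 of 21 sites fell in the last block and 2 of 9 in the first.

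Over the whole pathway a larger share of sites fell far from the 3′ end of the gene than near it, but the control level differed too. At 5000 nt or more from the annotated end, introns included, 55 of 182 sites fell (30.2%), beside 31.5% of all sites in protein-coding genes. At 1000 to 5000 nt 25 of 150 fell, and under 1000 nt 8 of 48 fell, 16.7% in both, beside 22.7% and 29.8% of all such sites. In the farthest class the share was thus close to that of all such sites. That class also had the highest control level. The mean of the control library medians was 49.1% there, against 41.8% at 1000 to 5000 nt and 43.5% under 1000 nt. Whether the shares differ by distance at the same control level was not tested. Sites were clustered, with 197 of the 380 within 50 nt of another one of the pathway, so neighbours share reads. Only 7 had a listed site exactly 6 nt away (1.84%, beside 3.99% of all tested sites). Exons and untranslated regions were not used here.

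Transcript amount was compared with the deposited gene coverage, scaled between libraries, in 45 genes of the pathway. None passed in either direction in limma (adjusted p of 0.05 over all genes), beside 0.253% of all genes higher and 0.0422% lower. At an unadjusted p under 0.05, 8 were higher and 3 lower, beside 8.14% and 6.29% of all genes. ID1 had the smallest p, with a scaled coverage of 223 and 232 with ascorbic acid, against 181 and 172 in control, a log2 difference of 0.37 ± 0.06 (SE, adjusted p = 0.080). ID1 passed without control library 1 (adjusted p = 0.0325) and with libraries scaled by their sum (0.0455). LTBP4 had a scaled coverage of 99.5 and 101 with ascorbic acid, against 79.1 and 81.9 in control (log2 difference 0.32 ± 0.06, adjusted p = 0.094). LTBP3 had 43.7 and 46.6 with ascorbic acid, against 36.0 and 37.0 in control (0.31 ± 0.07, adjusted p = 0.129).

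In all 3 of these genes both ascorbic acid values were over both control values, as in 15 of the 45 genes, and in 11 they were under them. Of all genes 23.2% lay above and 23.6% below, so the pathway's counts are larger than these shares on one side and near them on the other, with no test of that difference. The log2 differences ran from -0.21 in TGFB1 to 0.37 in ID1, with a median of 0.00 in the pathway and -0.00 over all genes. In bulk libraries, less RNA per cell and fewer cells that contain it cannot be told apart. LTBP3 and LTBP4 thus combined the widest falls in m6A level with a higher mean coverage that did not pass, and the ID genes a higher mean coverage with levels that did not pass. Whether coverage and level are linked was not tested.

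**Figure D5:**
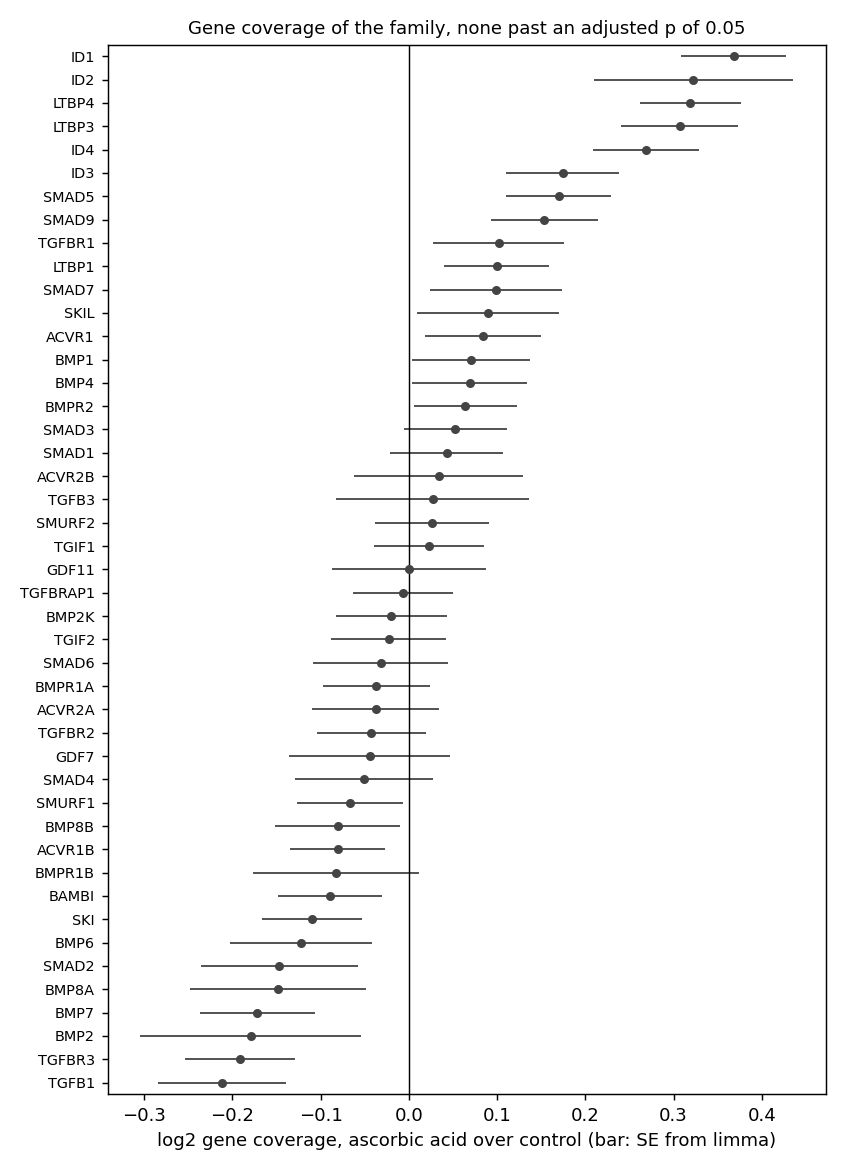
Log2 difference in scaled gene coverage, ascorbic acid over control (horizontal axis), for the 45 genes of the pathway with coverage in the libraries, with bars for the SE from limma. The 4 ID genes, LTBP3 and LTBP4 are at the top and TGFB1 is at the bottom, and none passed.

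Some sites were listed in 1 condition only, where they could not be tested. Of 891 sites of the pathway listed in any library, in 48 genes, 402 were in all 4 and 22 of those were under 20 reads. Another 24 sites were in both ascorbic acid libraries and no control library, and 24 were in both control libraries and no ascorbic acid library. LTBP4 had 4 and SMAD9 3 of the control-only sites, and GDF11 had 3 of the ascorbic-acid-only sites. The median level was 17.4% for the ascorbic-acid-only sites and 14.4% for the control-only sites, and the lists hold no site under 10%. The mean level was under 20% at 15 of the 24 ascorbic-acid-only sites and 18 of the 24 control-only sites. Some of the others were high: a GDF7 site was at 87.5% and 96.6%, an ACVR2A site at 73.7% and 87.0%, an ACVR1 site at 76.2% and 83.3% and a SKIL site at 79.2% and 72.0% in the ascorbic acid libraries, from 16 to 29 reads. These were named after their values were seen. A site that is missing from a list is therefore not shown to be unmethylated.

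Besides LTBP1, the genes GDF15, TGFB1I1 and TGFB2 had listed sites but no tested one. GDF15 was listed in at most 3 libraries, TGFB1I1 in 1, and TGFB2, whose protein is a ligand, in ascorbic acid library 2 alone. Just under the read minimum, at 19 reads in the shallowest library, were sites of ACVR2B, BMP6, GDF11 and TGIF1. Just inside it, at 20 reads, were 2 sites of BMPR2 and 1 each of GDF11, SMAD3 and SMURF1. The BMP6 site left out, chr6:7845257, was at 37.0% and 20.8% with ascorbic acid, against 52.4% and 57.9% in control, and the ACVR2B site left out, chr3:38453982, was at 18.5% and 18.2% with ascorbic acid, against 31.6% and 30.6% in control.

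Other genes of the pathway, from a list of 74 that held antagonists, SMAD cofactors, ubiquitin enzymes and targets outside the naming rule, moved the same way. Of the 50 with tested sites, 35 fell (70%, beside 56.8% of all genes), none rose and 15 did not pass. Among all genes with at least 3 tested sites 68.3% fell, but some of the 50 had fewer, so these sets are unlike. The median change of the 50 was -7.08 percentage points, beside -5.39 in the 44 genes and -5.92 over all genes. PIAS4, a SUMO ligase that modifies SMADs, had the smallest p, with 32.0% ± 0.0808 with ascorbic acid and 50.3% ± 3.38 in control (SD, n = 2 each, adjusted p = 3.33e-09). USP9X, a deubiquitinase that acts on SMAD4, averaged 26.3% ± 2.64 with ascorbic acid and 44.0% ± 3.33 in control (adjusted p = 1.08e-08). Next came E2F4, LEMD3, which restrains receptor SMADs at the inner nuclear membrane, ITGAV and AXIN1. Whether this list differs from the 44 genes was not tested.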

How the data were processed

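The A plus G read counts and A read counts of each site are the authors' whole-number counts, deposited without scaling. The m6A level was deposited as the fraction of A among these reads and was matched from the counts within 5e-06. Per the file headers, the authors also gave a conversion rate, a fraction per gene or chromosome. Gene coverage is a signal deposited by the authors, whose unit no source defines. The p-value of each site is the authors' own test against background, per the file headers, and was not used. The submitters' processing notes name Trimmomatic 0.39 and STAR; the sources used here do not name the site caller. Listed sites had at least 15 reads, at least 5 with A, and a level of at least 10%.

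Tests were run over the whole table: edgeR 4.0.16 (quasi-likelihood) on reads with A and with G, with library terms and ascorbic acid on the odds of A, and limma 3.58.1 (trended eBayes) on log2 gene coverage scaled to the geometric mean library by median ratio. Levels and coverage are given per library, and a difference per site or gene is ascorbic acid minus control. Adjusted p-values are Benjamini-Hochberg values, two-sided. On simulated data the site test recovered 25% of log2 odds changes of -1 and 76% of -2 with 9 false calls, and the gene test 80% and 96% with 11. The simulated reads held counting error only, and 100 sites or genes were changed at each size, far fewer than fell in these data. These shares and false calls need not hold for the tests reported here. Alternatives were limma, DESeq2 1.42.0, other read minimums, sites 6 nt apart left out, a replicate block, other coverage settings and each library left out. Same-numbered libraries were not paired: their deviations correlated at -0.005 over sites, -0.004 over genes and -0.163 in coverage. All 44 genes matched the RefSeq gene table (GRCh38.p14), which gave starts and ends. Its promoter windows gave the sequences, as the listed positions are on the same build. Sites given with 4 values were the site of smallest p per fallen gene, the 5 of highest control level and those at the read minimum, unless stated; the coverage genes and other pathway genes were the 3 and 6 of smallest p. The members and lists were chosen with earlier results of these data known.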

Additional observations from a re-analysis of the deposited data

How the results depend on the processing

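Single results were rerun for the 44 genes and 26 named sites, and none of those that fell changed direction under these alternatives. The 88 fallen sites became 39 with DESeq2 and 47 to 79 with a library left out, and 76 to 93 under the other settings, where the replicate block gave 93; risen sites numbered 0 to 1 with a library left out. The 22 fallen genes became 16 with DESeq2, 19 with limma, 22 with the replicate block and 16 to 24 elsewhere; the block changed no gene call. The median change over these sites was -4.49 with 50 reads, -4.59 with no read minimum, -4.55 without sites 6 nt apart, -4.52 after correction for conversion and -5.48 to -3.99 with a library left out. Over all sites, falls numbered 9991 with DESeq2 and 12419 to 16966 with a library left out (20188 in the main test), and rises 81 with limma, 16 with DESeq2, 58 without sites 6 nt apart and 29 to 236 with a library left out (173). Over all genes, rises numbered 11 with DESeq2, 11 without sites 6 nt apart and 16 to 98 with a library left out (32). Genes of the pathway with higher coverage numbered 1 when scaled by the sum and 0 to 2 with a library left out, and all such genes 66 when scaled by the sum, 70 with the replicate block, 85 with a crossed replicate block and 3 to 236 with a library left out (30). Genes with lower coverage numbered 22 with either block and 2 to 122 with a library left out (5). The crossed block, which paired unlike numbers, was added after seeing the data because same-numbered libraries correlated below -0.1 in coverage; no gene of the pathway passed under it.

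Among these 44 genes and 26 sites, direction changed at 9 genes and 1 site, none of which passed, given here as log2 odds ratios. BMP2K was 0.0936 with 50 reads. BMP4 was 0.19 with 50 reads, 0.10 without sites 6 nt apart and from -0.15 to 0.0916 with a library left out. GDF7 was -0.16 with no read minimum and from -0.15 to 0.60 with a library left out. With a library left out, ID2 ranged from -0.37 to 0.00153, BAMBI from -0.30 to 0.000836, TGFB3 from -0.69 to 0.0881, BMP2 from -0.26 to 0.00255, SMAD2 from -0.0913 to 0.0194, BMPR1B from -0.60 to 0.31 and the BMPR2 site at 202559936 from -2.71 to 0.13. The causes were not tested. With 2 libraries a group and about 100 reads a site, sites that did not pass are not shown to be unchanged. In the simulation a change of -1 in log2 odds at a single site was found in only 25% of cases. That share need not hold for these data, since the simulation had counting error only and far fewer changed sites.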
